A study of Mus musculus with 6 samples.

Results

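The genes described here are those of the pigment epithelium and of the melanosome, the organelle in which melanin is made and stored. They were taken by name, 32 genes in all, with earlier results of these data known. Of these, 31 had a probe set on the arrays, out of 18193 genes measured. Slc24a5, an ion exchanger of the melanosome, was not matched to a probe set in the annotation used here and was not analysed. RNA came from GFP-positive cells sorted from E12 mouse eyes, as 3 pools of control cells (Pax6 +/+;α-Cre, given as alpha-cre in the labels) and 3 pools of Pax6 mutant cells (Pax6 loxP/loxP;α-Cre, given as Pax6 flox alpha-cre), all on the ICR background. Both groups carry the α-Cre transgene, in which a Pax6 promoter and an enhancer of the peripheral retina drive Cre and GFP, and the groups differ in the floxed Pax6 alleles, which Cre deletes. The labels call both groups retinal progenitors and each pool a biological repeat, and each pool was measured on 1 Affymetrix array.

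The pigment epithelium forms from the outer layer of the optic cup, next to the progenitors of the neural retina. Its identity depends on Mitf, a transcription factor that switches on the genes of melanin synthesis, and it later takes up retinoids and returns them to photoreceptors through the visual cycle. Melanoblasts of the neural crest also use melanosome genes but take no part in the visual cycle. ICR mice are albino, because their tyrosinase enzyme is inactive, so transcripts of these genes can be present in cells without pigment.

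In the arrays of Pax6-deficient cells, 10 of the 31 genes were higher than in control cells by limma and none was lower, with 1 gene (Myo5a) lower at an unadjusted p under 0.05. The called genes were Mitf, the melanin enzyme genes Tyr and Tyrp1, the melanosome genes Mlana, Gpnmb and Gpr143, the visual cycle genes Rlbp1 and Rdh5, and Ttr and Serpinf1, which encode secreted proteins of the pigment epithelium. To be called, a gene had to differ by 1.5-fold or more with p under 0.05 and a limma p under 0.10 after adjustment over all probe sets. By that rule 2.28% of all genes were higher and 0.918% lower. Another 10 members had an adjusted p under 0.10 from limma with a positive difference that did not reach the fold change, so that 20 of 31 passed the p-value alone, against 7.15% of all genes. On the log2 scale of the difference the members had a median of 0.45, beside -0.01 over all genes. The members' differences lay between -0.20 and 1.00, and 27 of 31 were above 0, as were 47.1% of all genes. For 21 members every mutant array was above every control array, against 17.0% of all genes. Counted by probe set, 19 of the 55 that match a member were called higher and none lower, against 1.67% and 0.984% of all probe sets.

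**Figure D1:**
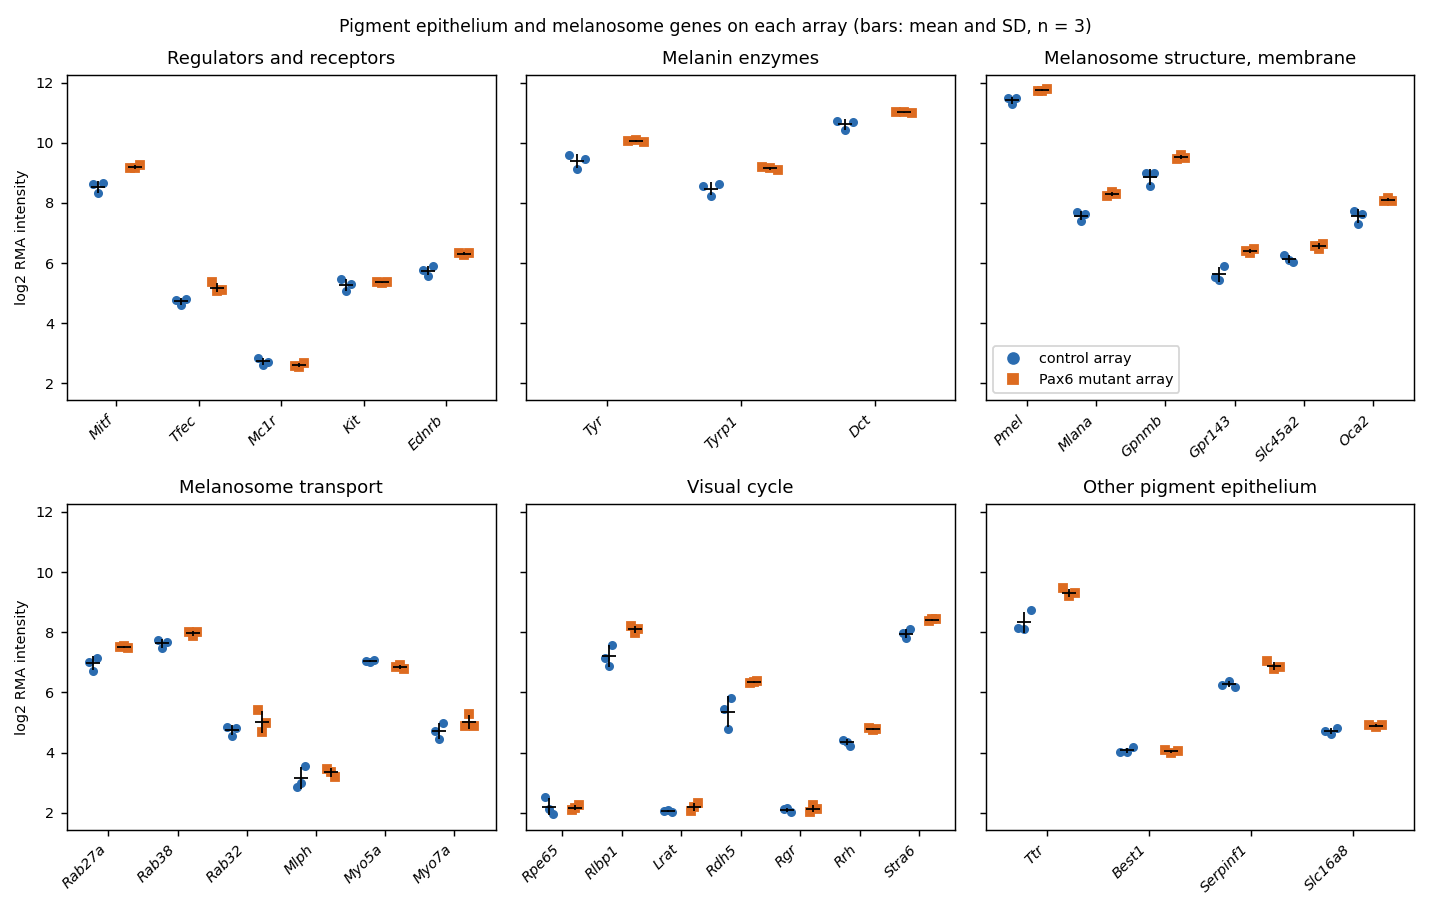
Log2 RMA intensity (vertical axis) of each member gene on each of the 6 arrays, by role, with control arrays as blue circles, mutant arrays as orange squares, and black bars for the mean and SD of 3 arrays. Tyr, Tyrp1 and Dct are higher on all 3 mutant arrays than on any control array, whereas Rpe65, Lrat and Rgr stay near 2 on all of them.

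Promoter sequences are shown for 5 genes, the 3 enzymes of melanin synthesis and the pair of visual cycle genes that were called, because Mitf family factors are known to bind CATGTG and CACGTG elements before pigment genes, the first often within the longer TCATGTG. Each line holds the 250 bases before the annotated start of transcription, 5′ to 3′ on the gene's strand, in the RefSeq annotation of build GRCm38.p6. Capitals mark these elements, or TAATCC (the kind of site that Otx factors bind), on either strand. The longer element contains CATGTG, so a match to it is also one to the shorter. The windows are Tyr at chr7:87493513-87493762 (minus strand), Tyrp1 at chr4:80833963-80834212 (plus strand), Dct at chr14:118052247-118052496 (minus strand), Rlbp1 at chr7:79387028-79387277 (minus strand) and Rdh5 at chr10:128919298-128919547 (minus strand).
Tyr: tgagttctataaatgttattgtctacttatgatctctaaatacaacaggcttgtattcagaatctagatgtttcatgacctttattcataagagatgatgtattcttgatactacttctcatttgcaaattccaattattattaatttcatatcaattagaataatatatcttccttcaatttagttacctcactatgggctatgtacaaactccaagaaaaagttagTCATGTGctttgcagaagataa
Tyrp1: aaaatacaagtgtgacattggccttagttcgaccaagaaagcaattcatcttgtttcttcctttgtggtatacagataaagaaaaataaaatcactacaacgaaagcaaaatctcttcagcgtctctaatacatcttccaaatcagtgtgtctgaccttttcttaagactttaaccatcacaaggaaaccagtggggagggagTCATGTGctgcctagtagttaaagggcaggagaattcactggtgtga
Dct: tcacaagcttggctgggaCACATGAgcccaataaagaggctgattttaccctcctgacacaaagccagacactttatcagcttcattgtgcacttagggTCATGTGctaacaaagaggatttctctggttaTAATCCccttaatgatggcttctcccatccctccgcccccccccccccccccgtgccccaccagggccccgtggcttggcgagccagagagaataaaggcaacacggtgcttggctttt
Rlbp1: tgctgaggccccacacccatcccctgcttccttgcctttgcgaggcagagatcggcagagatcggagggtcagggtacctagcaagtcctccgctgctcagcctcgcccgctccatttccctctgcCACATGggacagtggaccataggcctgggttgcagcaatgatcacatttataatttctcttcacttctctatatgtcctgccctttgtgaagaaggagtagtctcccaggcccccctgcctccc
Rdh5: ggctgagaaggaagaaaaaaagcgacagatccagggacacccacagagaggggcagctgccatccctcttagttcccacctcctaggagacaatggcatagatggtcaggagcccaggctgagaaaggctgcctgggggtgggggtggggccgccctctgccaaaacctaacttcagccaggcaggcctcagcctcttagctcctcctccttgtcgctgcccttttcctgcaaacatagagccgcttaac
Tyr, Tyrp1 and Dct each had TCATGTG, and Dct had it on both strands. Rlbp1 had the shorter CATGTG on the reverse strand, and the Rdh5 window had no match.

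Across the members, 26 genes had a promoter window in the table, Slc24a5 among them. The melanosome genes Pmel, Mlana, Gpr143, Slc45a2 and Rab38 had none, nor did Ttr. TCATGTG or its reverse complement was found for 6 of these 26 genes (23.1%), namely Tyr, Tyrp1, Dct, Mc1r, Myo7a and Slc24a5, against 3.72% of all 27025 genes with a window and 3.25% of all windows. By role, 5 of 11 melanosome genes and 0 of 7 visual cycle genes had it. CATGTG, within the longer element or not, was found for 10 of the 26 (38.5%), against 13.8% of all genes. It was present for 6 of 11 melanosome genes and 2 of 7 visual cycle genes. CACGTG was found for Mlph and Rab27a, 7.69% of members against 6.86% of all genes. TAATCC was found for 6 members (23.1%), including Rpe65, Best1 and Mitf, against 7.21% of all genes. By role, 1 of 11 melanosome genes and 2 of 7 visual cycle genes had TAATCC. The windows of Tyr, Tyrp1 and Dct shared the stretch GTCATGTGCT, which was looked for after the windows had been seen and is present in 51 of 32851 windows (0.155%). These matches describe the reference sequence, not that of ICR mice or binding in these cells. A gene with a match was not always called, as Mc1r, Myo7a and Dct show.

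Among the regulators, Mitf, which drives the pigment cell programme, rose. Its log2 intensity was 8.64, 8.32 and 8.67 in control and 9.18, 9.15 and 9.26 in mutant cells. The groups did not overlap, and the difference was 1.57-fold, with a log2 difference of 0.65 (SE 0.10, limma adjusted p = 0.0186). A dimmer Mitf probe set differed by 0.40 on the log2 scale and was not called (limma adjusted p = 0.205), and the median of both was not called either (0.52). Tfec, a relative of Mitf found in the pigment epithelium, was at 4.76, 4.61 and 4.81 in control and 5.35, 5.08 and 5.10 in mutant cells. Every mutant array was above every control array for Tfec, yet its log2 difference of 0.46 (limma adjusted p = 0.0432) was under the fold change of 1.5.

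The receptors of the melanocyte lineage differed among themselves. Ednrb, the endothelin receptor that melanoblasts need, was at 5.77, 5.58 and 5.90 on control and 6.33, 6.26 and 6.34 on mutant arrays. Its groups did not overlap, and its log2 difference of 0.56 (SE 0.09, limma adjusted p = 0.0193) was just under the fold change required, while its 2 other probe sets had differences of 0.25 and 0.18 that did not pass. Kit, the receptor of melanoblast survival, was between 5.07 and 5.47 in control and between 5.35 and 5.36 in mutant cells, so that the mutant values lay inside the control range (log2 difference of 0.08, limma adjusted p = 0.72). Mc1r, the melanocortin receptor that sets the type of melanin, was below the array median on all 6 arrays and had a log2 difference of -0.12 (limma adjusted p = 0.437).

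The 3 enzymes of melanin synthesis were all higher on every mutant array, and 2 were called. Tyr, the rate-limiting tyrosinase, had log2 intensities of 9.59, 9.13 and 9.47 in control and 10.06, 10.10 and 10.03 in mutant cells. All 3 Tyr probe sets were called, with log2 differences of 0.67 (SE 0.12, limma adjusted p = 0.0256) for the brightest and 0.75 and 0.65 for the others. Tyrp1, which acts after tyrosinase, was at 8.58, 8.22 and 8.62 in control and 9.20, 9.15 and 9.10 in mutant cells. Its 3 probe sets were called too, with log2 differences of 0.68 (SE 0.11, limma adjusted p = 0.0216), 0.74 and 0.62. For both genes the mutant arrays lay close together and the control arrays were more spread, with control replicate 2 lowest for the brightest probe set. Dct, the dopachrome tautomerase, was at 10.72, 10.41 and 10.70 in control and 11.01, 11.04 and 10.99 in mutant cells. The groups of Dct did not overlap, but the difference of 0.41 on the log2 scale (SE 0.09, limma adjusted p = 0.0553) was 1.32-fold and was not called.

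For all 6 measured genes of melanosome structure and membrane the mutant arrays lay above the control arrays without overlap, and each gene had an adjusted p under 0.10 from limma. Of these, 3 were called. Gpr143, a receptor on the melanosome membrane that is mutated in ocular albinism, was at 5.53, 5.45 and 5.91 in control and 6.41, 6.32 and 6.47 in mutant cells, a 1.71-fold difference (0.77 on the log2 scale, SE 0.12, limma adjusted p = 0.0193). Mlana, which takes part in the maturation of melanosomes, was at 7.71, 7.41 and 7.62 in control and 8.22, 8.36 and 8.31 in mutant cells, a 1.64-fold difference (0.72 on the log2 scale, SE 0.09, limma adjusted p = 0.0107). Gpnmb, a glycoprotein related to Pmel, was at 9.01, 8.57 and 9.002 in control and 9.48, 9.59 and 9.50 in mutant cells, and both of its probe sets were called (0.66 and 0.68 on the log2 scale). The Gpnmb call was lost without mutant replicate 2 (0.63). Mlana was called under every one of 16 other settings, and Gpr143 under 15 of them.

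The remaining genes of this role did not reach the fold change by their brightest probe set. Oca2, a melanosome transporter, was at 7.74, 7.30 and 7.64 in control and 8.08, 8.16 and 8.08 in mutant cells (log2 difference of 0.55, limma adjusted p = 0.0435). Slc45a2, another transporter whose loss causes albinism, had a log2 difference of 0.43 (limma adjusted p = 0.0396) by its brightest probe set, and 0.67 (limma adjusted p = 0.0255) by a dimmer one that was called. Pmel, which forms the fibrils on which melanin is laid down, had the smallest difference of the role, with values between 11.28 and 11.50 in control and between 11.73 and 11.78 in mutant cells (log2 difference of 0.33, limma adjusted p = 0.0545). Its groups still did not overlap.

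None of the 6 genes of melanosome transport was called by limma (2 were higher and 1 lower at an unadjusted p under 0.05), and their median log2 difference was 0.29. Rab27a, the GTPase that ties melanosomes to actin motors, was at 7.02, 6.71 and 7.16 in control and 7.50, 7.53 and 7.48 in mutant cells, with a log2 difference of 0.54 (SE 0.11, limma adjusted p = 0.0437). The 3 dimmer Rab27a probe sets had differences of 0.91, 0.61 and -0.16 and did not pass either. Rab38, which sorts enzymes to melanosomes, did not overlap between groups and had a log2 difference of 0.33 (limma adjusted p = 0.0896). Its relative Rab32 overlapped, with 4.84, 4.55 and 4.83 in control and 5.40, 4.67 and 4.98 in mutant cells (0.28, limma adjusted p = 0.438). The adaptor gene Mlph (0.19) was below the array median on every array, and the motor gene Myo7a (0.31) overlapped between groups. Myo5a, the motor that the Rab27a complex recruits, was at 7.04, 7.01 and 7.08 in control and 6.85, 6.90 and 6.77 in mutant cells. It was the 1 member whose mutant arrays were all below the control arrays, against 16.4% of all genes, with a log2 difference of -0.20 (limma adjusted p = 0.126) that did not pass.

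The 7 visual cycle genes fell into 4 above the array median, which were higher in mutant cells with an adjusted p under 0.10 from limma, and 3 near the bottom of the scale, which did not pass. Rlbp1, the retinaldehyde-binding protein, was at 7.13, 6.89 and 7.59 in control and 8.20, 7.96 and 8.12 in mutant cells. The groups did not overlap and the difference was 1.85-fold (0.89 on the log2 scale, SE 0.17, limma adjusted p = 0.0344). Rdh5, the dehydrogenase that oxidises 11-cis-retinol, was at 5.45, 4.79 and 5.81 in control and 6.30, 6.36 and 6.38 in mutant cells. Its 1.99-fold difference (1.00 on the log2 scale, SE 0.23, limma adjusted p = 0.0567) was the largest among the 31 brightest probe sets, and control replicate 2 was far below the other control arrays. The Rdh5 call was lost without control replicate 1 (1.05) and without any single mutant array (0.98 to 1.02), and the Rlbp1 call without mutant replicate 1 (0.84) or mutant replicate 3 (0.88).

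Stra6, the membrane receptor for retinol-binding protein, was at 7.96, 7.79 and 8.10 in control and 8.37, 8.44 and 8.43 in mutant cells. Rrh, an opsin of the pigment epithelium, was at 4.43, 4.35 and 4.23 in control and 4.83, 4.74 and 4.78 in mutant cells. Neither overlapped between groups, and both passed the p-value but not the fold change, with log2 differences of 0.46 (limma adjusted p = 0.0327) and 0.45 (limma adjusted p = 0.0201). Rpe65, the isomerase of the cycle, was at 2.51, 2.13 and 1.97 in control and 2.10, 2.15 and 2.27 in mutant cells. Lrat, which esterifies retinol, and Rgr, a retinal-binding opsin, were as dim, with log2 differences of 0.13 and 0.04, and Rpe65 had one of -0.03. All 3 were below the array median on all 6 arrays, where a small difference cannot be shown, and the direction for Rpe65 and Rgr changed with the arrays or the normalisation used.

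**Figure D2:**
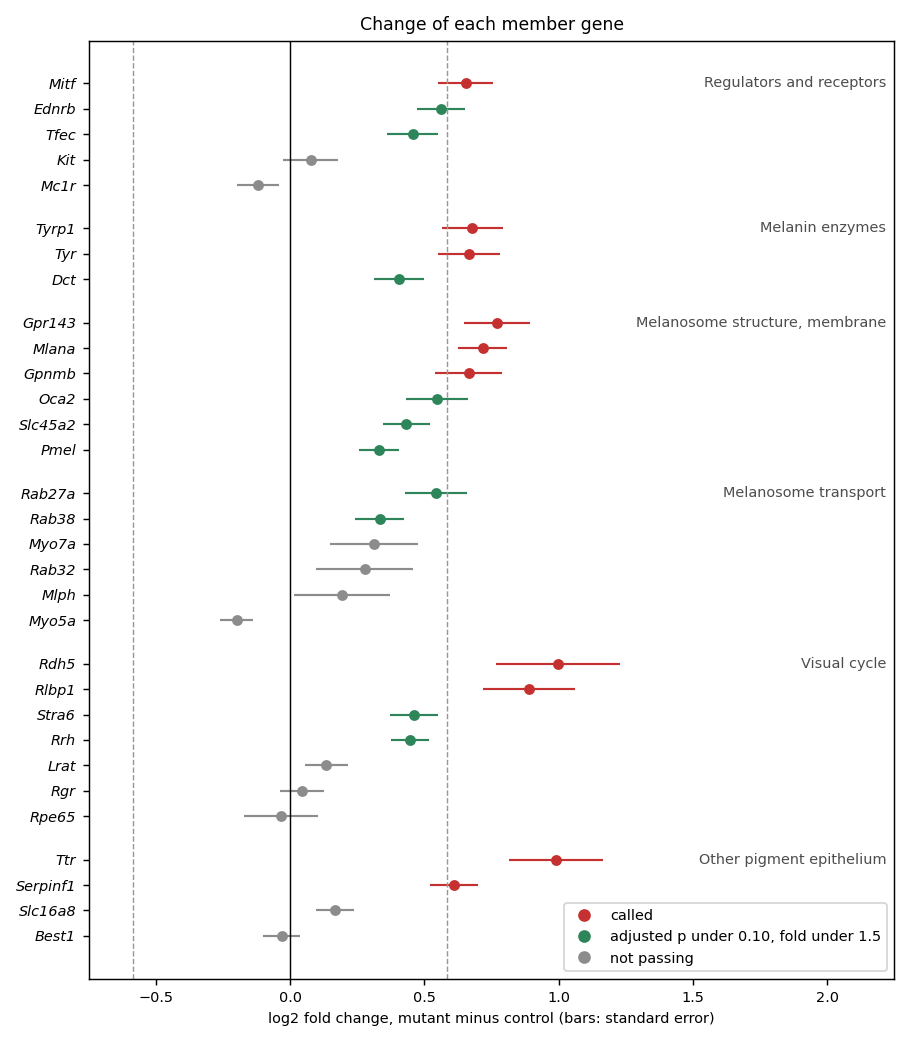
Log2 fold change, mutant minus control, of each measured member (horizontal axis) with its standard error, grouped by role; dashed lines mark a fold change of 1.5 in either direction. Red points were called, green points had an adjusted p under 0.10 at a smaller fold change, and the right-most points are Rdh5 (1.00) and Ttr (0.99).

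Of the other genes of the pigment epithelium, Ttr and Serpinf1 rose and a pair did not. Ttr, the transthyretin that carries thyroxine and retinol-binding protein, was at 8.14, 8.09 and 8.73 in control and 9.46, 9.19 and 9.29 in mutant cells. All 4 Ttr probe sets were called, with log2 differences of 0.99 (SE 0.17, limma adjusted p = 0.0256) for the brightest and 0.97 to 1.18 for the rest. Serpinf1, which encodes the secreted factor PEDF, was at 6.25, 6.39 and 6.19 in control and 7.03, 6.78 and 6.85 in mutant cells (0.61 on the log2 scale, SE 0.09, limma adjusted p = 0.0151). Its second probe set had a difference of 0.24 (limma adjusted p = 0.119), and Serpinf1 missed the fold change by the median of both (0.43), with 16 added to each intensity (0.52), and without control replicate 3 (0.57) or mutant replicate 1 (0.54). Best1, a chloride channel of mature pigment epithelium, had a log2 difference of -0.03 (limma adjusted p = 0.84). Slc16a8, the lactate transporter of this epithelium, had one of 0.17 (limma adjusted p = 0.242), with all mutant arrays slightly above the control arrays.

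Melanosome genes and visual cycle genes had medians close to each other. The 15 measured melanosome genes (enzymes, structure and transport) had a median log2 difference of 0.43, with 5 called, and the 7 visual cycle genes one of 0.45, with 2 called. Within the melanosome genes, the 9 of synthesis and membrane had a median of 0.66, against 0.29 for the 6 of transport. As a mean over genes, relative to each gene's control mean, the melanosome genes stood at 0.07, -0.19 and 0.12 in control and at 0.47, 0.44 and 0.42 in mutant cells. The visual cycle genes stood at 0.07, -0.15 and 0.08 in control and at 0.38, 0.42 and 0.46 in mutant cells. As means, both sets were lowest on control replicate 2, and both separated the mutant from the control arrays. By gene, that array was the lowest control for 13 of 15 melanosome genes but for 3 of 7 visual cycle genes. The difference between the sets lay between -0.04 and 0.04 on control arrays and between -0.04 and 0.09 on mutant arrays, so that these ranges overlapped. The medians moved with the treatment of dim genes. With the dimmest 40% of probe sets removed, which drops Rpe65, Lrat and Rgr, they were 0.43 and 0.67, and with 16 added to each intensity before the log they were 0.40 and 0.27, in the opposite order.

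**Figure D3:**
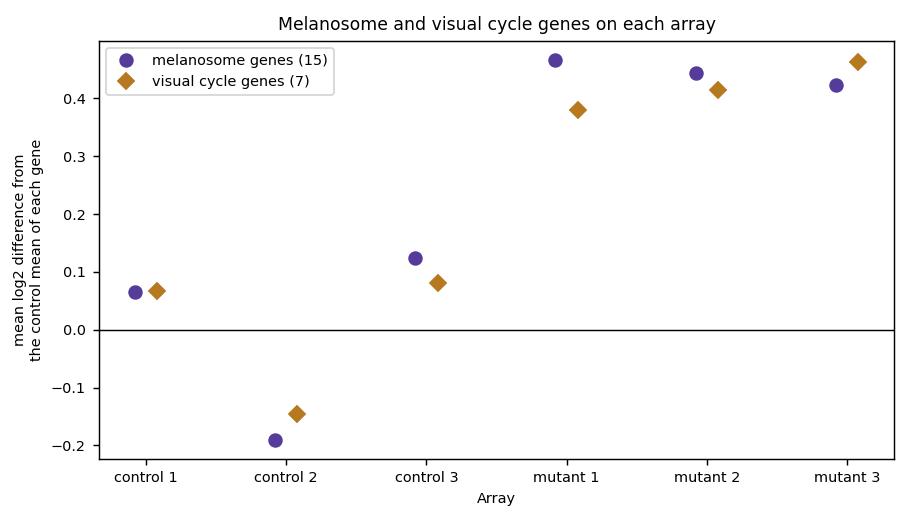
Mean log2 difference from each gene's control mean (vertical axis) on each of the 6 arrays, for the 15 melanosome genes (circles) and the 7 visual cycle genes (diamonds). Control replicate 2 is lowest for both sets (-0.19 and -0.15), and the 3 mutant arrays lie between 0.38 and 0.47.

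Control replicate 2 was the lowest control array for 23 of the 31 members (74.2%), against 34.3% of all genes. The same array was the lowest control for 9 of 10 endothelial markers, 4 of 5 blood markers and 13 of 17 further genes known from pigment epithelium, but for 3 of 10 periocular mesenchyme, 1 of 10 lens and 1 of 6 neural crest markers. The part of other cells in this was not tested. Without control replicate 2, 6 members were called in place of 10. The calls lost were those of Mitf (0.54), Tyr (0.53), Tyrp1 (0.55) and Gpnmb (0.52), which then missed the fold change of 1.5 while their adjusted p from limma lay between 0.0237 and 0.0285. Some genes just under the fold change passed it when 1 array was left out, namely Oca2 without control replicate 1 (0.63) or 3 (0.59), Ednrb without control replicate 3 (0.64) or mutant replicate 2 (0.59) and Rab27a without control replicate 3 (0.64). Without moderation of the variance, 2 members were called, Mlana and Serpinf1, and the other 8 had an adjusted p between 0.116 and 0.224.

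Genes around the members were examined as lists, and values in parentheses are log2 differences. Of 13 measured factors around the specification of the pigment epithelium, Pax6 among them, none was called by limma by its brightest probe set. By these probe sets 1 had an unadjusted p under 0.05, and the median log2 difference was 0.03. A dimmer Pax6 probe set was called lower, as given below. Otx2, a homeobox factor that acts with Mitf, was at 7.52, 7.16 and 7.45 in control and 7.50, 7.43 and 7.50 in mutant cells (0.10, limma adjusted p = 0.613), and the Mitf relatives Tfe3 and Tfeb had differences of 0.16 and 0.04. Of 29 genes of melanosome biogenesis, 1 was called higher, Sytl2 (0.62), an effector of Rab27a, and the median was 0.04. At a smaller fold change, 1 more was higher and 2 were lower with an adjusted p under 0.10 from limma. Of 13 further genes of retinoid handling, 2 were called higher, Rbp4 (1.22, limma adjusted p = 0.00598), the plasma carrier of retinol that binds Ttr and Stra6, and Crabp1 (0.81), a binding protein of retinoic acid. Of 17 further genes known from pigment epithelium, 7 were called higher and none lower by their brightest probe sets, with a median of 0.42, among them Efemp1 (0.94), a matrix protein, the channel gene Trpm1 (0.87) and the cadherin gene Cdh1 (0.86). The channel gene Trpm3 of the same list had a difference of -0.05 by its brightest probe set, but a dimmer one was called lower, at 6.97, 7.04 and 7.37 in control and 3.09, 4.54 and 3.01 in mutant cells (-3.58, limma adjusted p = 0.00679). Its other 4 probe sets had differences from -0.40 to -0.08 and were not called. The one at -0.40 passed the p-value but not the fold change (limma adjusted p = 0.0191).

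Markers of other cells also differed between the groups (log2 differences in parentheses), and their part in the pigment gene result was not tested. In these bulk pools, more pigment cells and more transcript per cell cannot be told apart. Of the 6 measured neural crest and melanoblast markers, 4 were above 0, and the median log2 difference was 0.07. Only Erbb3 was called higher (0.63), and its dimmer probe set was not (-0.04, limma adjusted p = 0.889). The summed linear intensity of the list, to which bright genes add most, was 192 to 198 in control and 259 to 273 in mutant cells. Sox10, which marks melanoblasts, was at 4.44, 3.88 and 3.57 in control and 4.02, 4.09 and 4.08 in mutant cells (0.10, limma adjusted p = 0.814), and Pax3, a further marker of them, was below the array median on all 6 arrays. Periocular mesenchyme markers were called higher for 5 of 10 genes, led by Pdgfrb (1.64), with a summed intensity of 538 to 579 in control and 844 to 1166 in mutant cells. Endothelial markers were called higher for 5 of 10, led by Cdh5 (1.23), with 637 to 864 in control and 1102 to 1192 in mutant cells. Lens markers were called higher for 1 of 10 (Mip, 0.98), with 1072 to 2048 in control and 2312 to 2702 in mutant cells. All 10 were above 0, and their median log2 difference was 0.51. Blood markers were called higher for 1 of 5 (Hbb-bh1, 1.00), with 8156 to 11061 in control and 11420 to 12314 in mutant cells. All 5 were above 0, with a median of 0.38. The 31 members had a summed intensity of 7216 to 8839 in control and 11528 to 11593 in mutant cells.

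**Figure D4:**
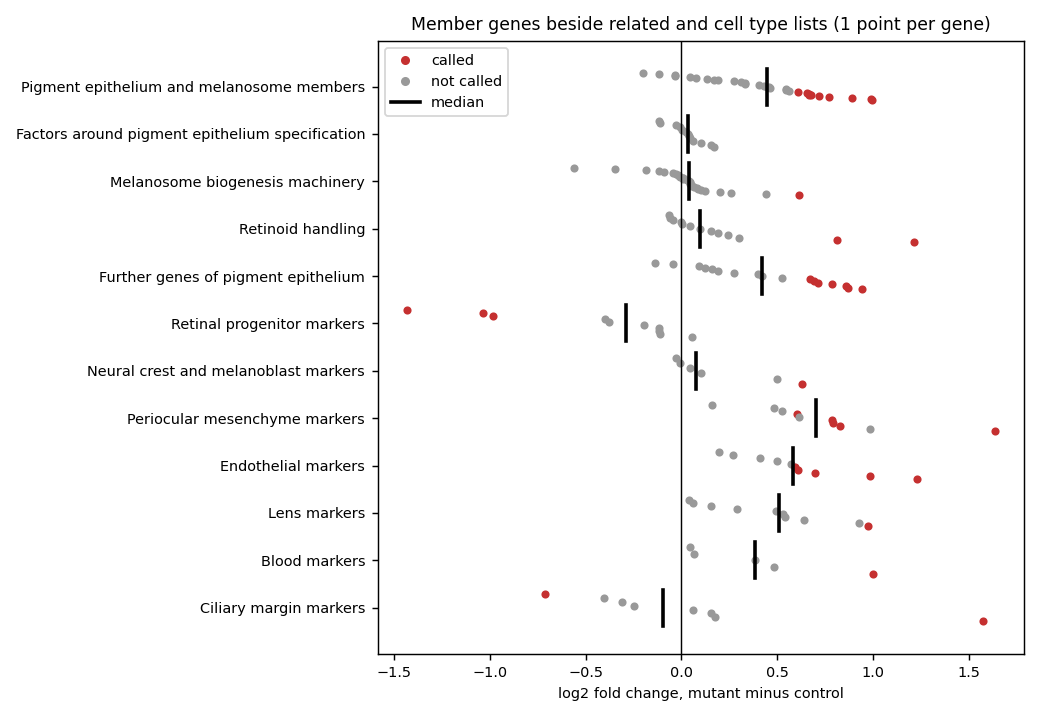
Log2 fold change, mutant minus control (horizontal axis), of each gene in the member set and in 11 related or cell type lists, with 1 point per gene, red where called, and a black bar at the median. Medians above 0 include those of the members (0.45), mesenchyme (0.70), endothelial (0.58), lens (0.51), further pigment epithelium (0.42) and blood (0.38) lists. Those of the retinal progenitor (-0.29) and ciliary margin (-0.09) lists are below 0.

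All 10 measured markers of retinal progenitors, the labelled cell type, were above the array median on all 6 arrays. This does not set them apart from other cells, since 0 of 10 endothelial and 0 of 5 blood markers were below it on all 6. Of the progenitor markers, 3 were called lower in mutant cells, Fgf15 (-1.43), Dkk3 (-1.03) and Sfrp2 (-0.98). Only 1 of the 10 was above 0, and their median log2 difference was -0.29. For 8 of them every mutant array was below every control array, against 16.4% of all genes. Pax6 itself was called lower by 1 of its 5 probe sets, at 6.34, 6.44 and 6.14 in control and 4.79, 4.88 and 4.45 in mutant cells (-1.60, limma adjusted p = 0.00329), while its brightest had a difference of -0.11. The position of each probe set relative to the deleted exons was not known, and one outside them does not check the deletion. Of 8 ciliary margin markers, whose cells adjoin the pigment epithelium at the distal cup, Bmp4 was called higher (1.57) and Zic2 lower (-0.71). By an adjusted p under 0.10 from limma alone, 1 of the 8 was higher and 3 were lower.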

How the data were processed

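GFP-positive cells of 3 control and 3 Pax6 mutant pools at E12 were each hybridised to 1 Affymetrix mouse array. The authors made the deposited intensity values by RMA, which corrects background, normalises between arrays and summarises the probes of a probe set. The methods name the RACE front-end to Bioconductor, and the submitters' processing notes list Affymetrix Expression Console as well as RMA, none with a version. The values are linear, so log2 was taken. After 64 control probe sets were left out, 45037 probe sets were fitted in limma 3.58.1 (R 4.3.3), mutant against control, with Benjamini-Hochberg adjustment over all of them and the thresholds of the methods, which add SAM as a second check. RMA compresses small values, so fold changes of dim genes can be understated. On the log2 scale, a dimmer probe set differed more for Slc45a2 (0.67 against 0.43) and less for Mitf (0.40 against 0.65).

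Symbols came from GEO's platform annotation: 34945 probe sets had 1 gene, 932 several and 9160 none listed. Of several probe sets for a gene, the brightest by mean across all 6 arrays was used. Every member is named; of the other lists, called genes are named, up to 3 in a direction, with Pax6, Otx2, Sox10 and Pax3 (a further gene of that rule is not reported here), and Tfe3, Tfeb and Trpm3 were named after their values were seen. The members and lists were chosen with earlier results of these data known. Alternatives changed the scaling, the filter on dim probe sets, the pseudocount, the probe set of a gene, the test, array weights, the block and the arrays included. The fit was tested on simulated data. Arrays have no depth per sample, and precision is limited by having 3 of them a group. The array medians lay between 3.68 and 3.71 (log2). Promoter windows are RefSeq's, cut to the 250 bases before each start.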

Additional observations from a re-analysis of the deposited data

How the results depend on the processing

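No member was called lower under any of the 16 alternatives. The count of members called higher, 10, was 8 to 10 under the 9 alternatives that kept all 6 arrays and moderated the variance, and 2 without the moderation. Leaving out 1 array at a time gave 6 to 12 members, fewest without control replicate 2. The median log2 fold change of the members lay between 0.36 and 0.47 under all alternatives. The difference between the melanosome and the visual cycle median was -0.01; it was -0.24 with the dimmest 40% of probe sets removed, 0.14 with 16 added before the log and 0.10 with the median of a gene's probe sets, and between -0.031 and 0.060 without 1 array at a time. The filter removes Rpe65, Lrat and Rgr from the visual cycle genes; the cause of the other changes was not tested. The number of probe sets called, 1195, was 517 with 16 added before the log, 460 without the moderation, and 886 to 1232 without 1 array at a time. Among single members, 4 that were not called changed direction: Best1 without control replicate 3, Kit without control replicate 2, Rgr without mutant replicate 2, and Rpe65 without control replicate 1 (0.12), without mutant replicate 1 (0.0048) and with quantile normalisation (0.0030). Without 1 array at a time their log2 differences ranged from -0.059 to 0.017 for Best1, from -0.029 to 0.17 for Kit, from -0.021 to 0.11 for Rgr and from -0.15 to 0.12 for Rpe65. Calls were lost in 24 and gained in 5 of the combinations of member and alternative. Equal replicate numbers did not pair the arrays: the deviations from the group means correlated at r of -0.011, -0.00064 and -0.0085 for numbers 1, 2 and 3. With the replicate number as a block, 10 members and 1136 probe sets were called. Genes below the array median, such as Rpe65, Lrat, Rgr, Mc1r and Mlph, cannot show a small difference on these arrays.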
